A study of Mus musculus with 4 samples.

Results

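The 10 genes described here encode MHC class II chains, the invariant chain Cd74, the peptide exchange chains and the factors that drive their transcription, out of 24346 gene symbols listed for cultured mouse hair follicle stem cells (HFSCs). The members are Cd74, H2-Aa, H2-Ab1, H2-Eb1, H2-DMa, H2-DMb1, Ciita, Rfx5, Rfxank and Rfxap. They were found by gene symbol, and the group was chosen from the FPKM values of these same libraries, in which Cd74 differed between passages, so their levels and differences are a description without a test. RNA was sequenced from HFSCs after 10 passages (10p-HFSCs, 2 libraries) and after 48 passages (48p-HFSCs, 2 libraries), and the comparison asked how long-term culture altered gene expression. The cells of both groups came from the back skin of 4-week-old C3H/HeN mice, were sorted for CD49f and CD34, and were grown without serum in M-CnT medium with weekly passages. No agent or allele separated the groups, and the labels and methods do not say whether replicates came from separate cultures or animals, so p-values then measure only the spread between these samples, which may be technical. FPKM counts the sequenced fragments of a gene relative to its exon length and to a scale set for each library, so it can be set side by side between genes of unequal length.

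MHC class II molecules are pairs of an α and a β chain that present peptides to CD4+ T cells. The invariant chain encoded by Cd74 binds new class II pairs, blocks their groove and directs them to endosomes, where cathepsins degrade it and the DM heterodimer exchanges the remaining fragment for peptides. Transcription of the chains, of Cd74 and of the DM genes depends on a promoter module of X and Y boxes, the RFX complex (Rfx5, Rfxank and Rfxap), NF-Y, CREB family factors and the coactivator CIITA, which is limiting and is induced by interferon gamma in cells that are not professional antigen-presenting cells. Class II molecules are best known from dendritic cells, Langerhans cells, B cells and macrophages, and keratinocytes can express them under interferon gamma. CD74 at the cell surface is also a receptor for the cytokine MIF, with CD44 and chemokine receptors as partners.

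Promoters are shown because the control module described above is known for the class II chains, Cd74 and the DM genes, whose levels differed widely. Sequences came from RefSeq on the mouse build GRCm38.p6, and cover 250 bases before and 50 bases after an annotated start. The table gave 7 promoters for 6 members, H2-Eb1, H2-DMb1, H2-Aa, H2-DMa (with 2 starts), Rfx5 and Rfxank, and held none for Cd74, H2-Ab1, Ciita or Rfxap. Those of H2-Eb1 (chr17:34305617-34305916, plus strand), H2-DMb1 (chr17:34152941-34153240, plus strand) and H2-Aa (chr17:34287774-34288073, minus strand) are printed 5′ to 3′, with X box cores (AGNNACNGA) and Y box cores (CCAAT), searched on both strands, in capitals:
H2-Eb1: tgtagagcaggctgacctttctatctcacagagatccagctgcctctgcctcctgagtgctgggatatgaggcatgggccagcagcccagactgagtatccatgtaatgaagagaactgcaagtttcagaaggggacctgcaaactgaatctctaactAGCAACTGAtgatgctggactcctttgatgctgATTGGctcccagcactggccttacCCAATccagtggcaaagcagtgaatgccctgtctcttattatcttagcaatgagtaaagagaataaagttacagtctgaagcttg
H2-DMb1: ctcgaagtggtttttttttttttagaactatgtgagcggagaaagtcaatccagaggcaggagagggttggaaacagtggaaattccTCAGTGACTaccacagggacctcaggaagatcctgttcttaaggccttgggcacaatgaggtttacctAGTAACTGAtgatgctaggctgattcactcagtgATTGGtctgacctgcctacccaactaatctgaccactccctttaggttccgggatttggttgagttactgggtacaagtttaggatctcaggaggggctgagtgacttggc
H2-Aa: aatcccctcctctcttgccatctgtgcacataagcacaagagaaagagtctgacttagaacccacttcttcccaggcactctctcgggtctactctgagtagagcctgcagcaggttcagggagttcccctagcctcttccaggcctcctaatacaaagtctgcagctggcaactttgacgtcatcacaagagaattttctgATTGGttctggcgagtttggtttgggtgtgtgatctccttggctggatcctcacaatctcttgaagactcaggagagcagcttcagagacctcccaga

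The H2-Eb1 window held an X box core starting 92 bases before the start site and Y box cores at 59 and 35 bases before it. H2-DMb1 had the same order, with X box cores at 163 and 95 bases and a Y box core at 61 bases before the start. H2-Aa held a Y box core 48 bases before its start, and these X box letters were not in its window. The promoters of the RFX subunits, which are not themselves class II chains, held Y box cores alone, at 113 and 54 bases before the start in Rfx5 and at 165 and 41 bases in Rfxank. Of the 2 H2-DMa starts, the first had neither core and the second had a Y box core 198 bases upstream.

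Such short letters are common, and of 32851 mouse promoters of this length 17.7% held the X box core, 37.4% the Y box core and 6.54% both. The core of the gamma interferon activation site (TTCNNNGAA), present in 8.3% of all promoters, and that of the interferon regulatory factor element (GAAANNGAA), present in 8.56%, were in none of the 7 windows of the members. A match describes letters and was not tested as a site, and the searched cores do not overlap one another in the printed sequences.

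**Figure D1:**
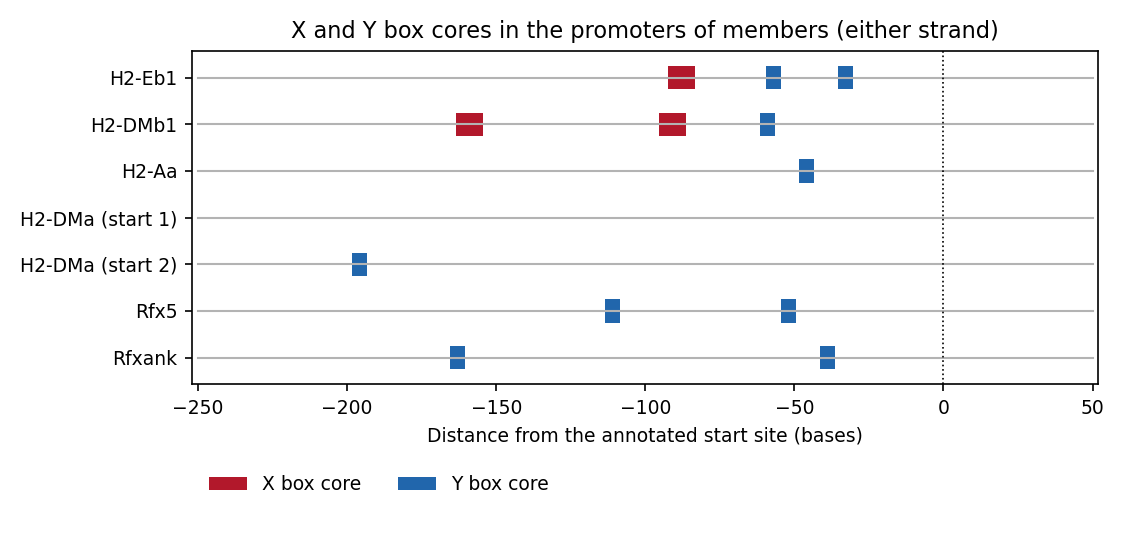
Positions of X box cores (red) and Y box cores (blue) in the 7 promoters of 6 members, with distance from the annotated start site in bases on the horizontal axis. H2-Eb1 and H2-DMb1 carry both cores within 100 bases before the start, with the X core farther out, while the other promoters carry Y cores or neither.

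Cd74 was the member that separated the passages most. Its FPKM was 0.335 and 0.201 in replicates 1 and 2 at 10 passages, against 61.2 and 102 at 48 passages. Both libraries of 48p-HFSCs lay far above both of 10p-HFSCs, with group means of 0.268 ± 0.0952 and 81.7 ± 29.0 FPKM (SD, n = 2 each) and a ratio of means of 305. On the log2(FPKM + 1) scale the difference was 5.98, whereas the replicates differed by 0.15 within 10p-HFSCs and by 0.73 within 48p-HFSCs. Because of the pseudocount of 1, differences on this scale understate the change of genes with low FPKM, and with a pseudocount of 0.1 the value was 7.77.

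The place of Cd74 among all genes changed likewise. In 10p-HFSCs its FPKM exceeded that of 53.5% and 50.9% of listed genes, and in 48p-HFSCs that of 94.5% and 95.2%. Among the 10 members it ranked 7 in both libraries of 10p-HFSCs and 1 in both of 48p-HFSCs. By log2 difference it stood at rank 17 of the 11018 genes that reached an FPKM of 1 in at least 2 libraries and entered the comparison. RNA of bulk cultures was measured, so a larger share of cells with a transcript and more transcript per cell cannot be told apart.

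The α and β chains that Cd74 accompanies were low in both groups. H2-Aa, the α chain of the A molecule, was listed at 0.0564 FPKM in replicate 1 of 10p-HFSCs and at 0 in the other 3 libraries. H2-Ab1, its β chain partner, was listed at 0 in all 4 libraries. H2-Eb1, the β chain of the E molecule, had FPKM values of 2.50 and 1.96 at 10 passages and of 2.41 and 1.43 at 48 passages. The groups overlapped for H2-Eb1, with means of 2.23 ± 0.386 and 1.92 ± 0.697 (SD, n = 2 each), and its log2 difference of -0.16 was smaller than the replicate differences of -0.24 and -0.49.

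Summed over these chains, FPKM was 2.56 and 1.96 in the replicates of 10p-HFSCs and 2.41 and 1.43 in those of 48p-HFSCs. The ratio of Cd74 to H2-Eb1 FPKM was thus 0.134 and 0.103 at 10 passages and 25.4 and 71.6 at 48 passages. C3H mice carry other alleles of the class II chains than the C57BL/6 strain from which mm10 was built, so the values of these polymorphic genes count reads that could be placed on the reference alleles, and how many were lost was not tested.

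**Figure D2:**
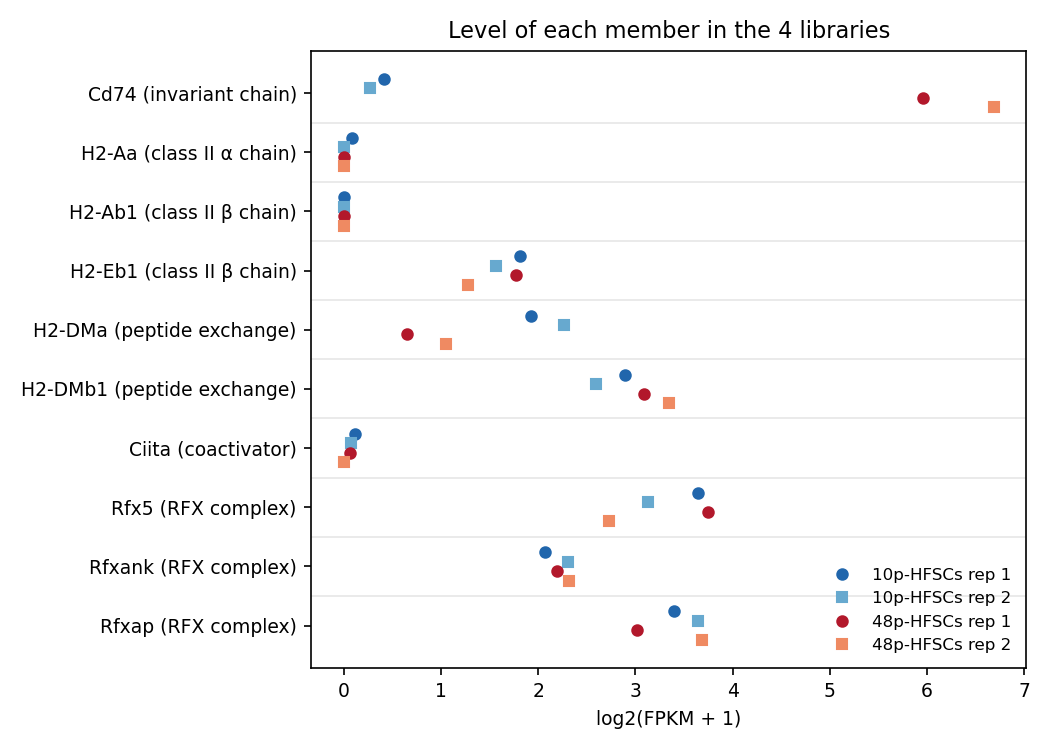
Level of each member as log2(FPKM + 1) on the horizontal axis, with 1 point per library (blue, 10p-HFSCs; red, 48p-HFSCs; circles, replicate 1; squares, replicate 2). Cd74 is near 0 in both 10p-HFSC libraries and above all other members in both 48p-HFSC libraries, while H2-Aa, H2-Ab1 and Ciita stay near 0 throughout.

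The chains of the DM heterodimer, the peptide exchange factor, differed from each other in their values. H2-DMa, its α chain, had FPKM values of 2.79 and 3.80 at 10 passages and of 0.567 and 1.08 at 48 passages. Every 48p-HFSC library lay below every 10p-HFSC library, the mean was 3.29 ± 0.715 against 0.823 ± 0.362 (SD, n = 2 each), and the log2 difference was -1.24 beside replicate differences of 0.34 and 0.41. The ratio of 10p to 48p means was 4.002, and the gene entered the comparison mainly through its level in 10p-HFSCs.

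H2-DMb1, the β chain, had FPKM values of 6.42 and 5.05 at 10 passages and of 7.52 and 9.19 at 48 passages. These groups did not overlap either, but in the other direction, with means of 5.73 ± 0.968 and 8.36 ± 1.18 (SD, n = 2 each) and a log2 difference of 0.48, which became -0.03 when FPKM was rescaled to TPM, where the median of all genes compared was -0.56. H2-DMb1 has a near-identical neighbour, H2-DMb2, with 5.95, 5.96, 6.97 and 8.43 FPKM in the same order of libraries, and how reads shared by these genes were divided is not given in the sources used here. The H2-DMb2 difference of 0.32 was not called (limma adjusted p = 0.43).

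Ciita, the coactivator without which class II genes are barely transcribed, was listed at 0.0788 and 0.0550 FPKM at 10 passages and at 0.0475 and 0 at 48 passages. Its low values were whole multiples of 1 step of FPKM after allowance for relative depth, and if a step is 1 read they stand for 2, 1, 1 and 0 reads. The only value of H2-Aa above 0 set its own step, so it is 1 step by construction and its reads are not known. On the reckoning used for Ciita, Cd74 had 7 and 3 steps in 10p-HFSCs and 1059 and 996 steps in 48p-HFSCs. Its level at 10 passages, and with it the ratio of 305, thus rests on few reads. At values this low a difference in Ciita was not detectable at this depth.

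The RFX subunits, which bind the X box, were present in both groups at between 3.20 and 12.4 FPKM. Rfx5, the DNA-binding subunit, had 11.5 and 7.76 FPKM at 10 passages and 12.4 and 5.62 at 48 passages, and its replicates differed more than its groups. Rfxank, the ankyrin repeat subunit, had 3.20 and 3.94 FPKM against 3.58 and 3.996, the narrowest range of the 3. Rfxap, the third partner, had 9.53 and 11.5 FPKM against 7.07 and 11.9. The log2 differences of Rfx5, Rfxank and Rfxap were -0.15, 0.07 and -0.17, and the groups overlapped for each.

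Of the 10 members, 7 reached the filter on low FPKM and H2-Aa, H2-Ab1 and Ciita did not. A gene was called when the limma adjusted p was under 0.05 and the groups differed by at least 2-fold. Cd74 was called higher and H2-DMa lower, 2 of 7, while over all 11018 genes 10.8% were called higher, 9.15% lower and 19.9% in either direction. The comparison served to choose the members, so nothing is read from that count. The median log2 difference of the 7 was -0.15 and that of all genes compared was -0.03. Cd74 passed the filter only through its level in 48p-HFSCs. H2-DMa was not called without the filter, after quantile normalization, or when replicate 1 or replicate 2 of 10p-HFSCs was left out, which makes the count 1.

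**Figure D3:**
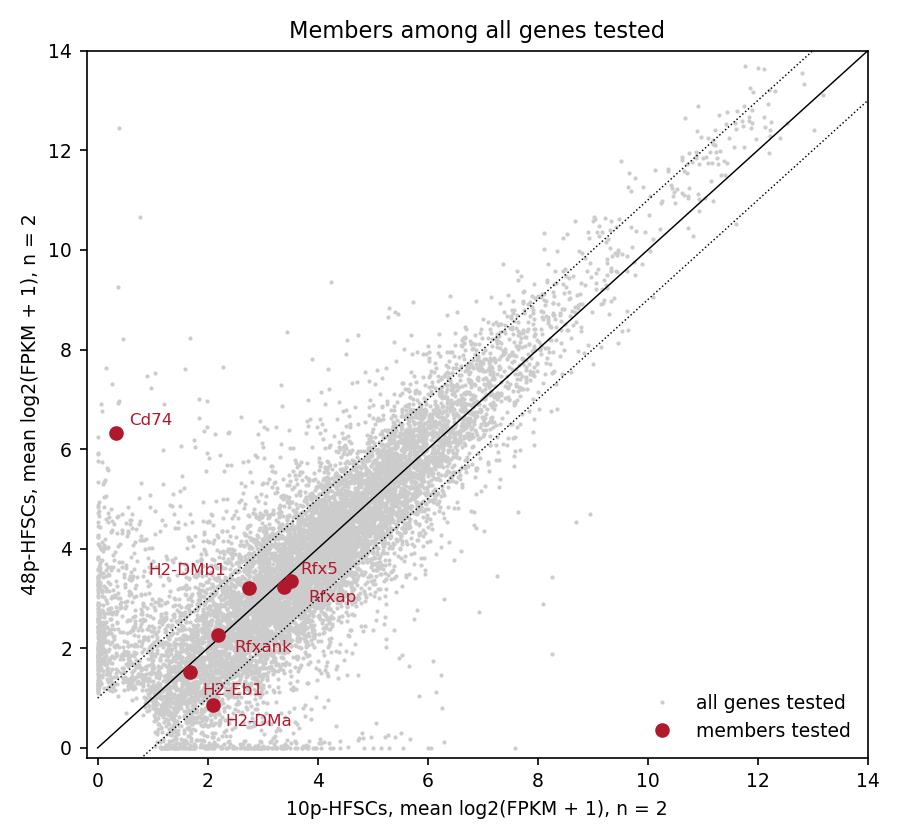
Mean log2(FPKM + 1) of 48p-HFSCs (vertical axis) against that of 10p-HFSCs (horizontal axis), n = 2 each, for the 11018 genes compared (grey) and the 7 members among them (red), with equal levels on the solid line and 2-fold differences on the dotted lines. Cd74 lies far above the lines and H2-DMa below them, and the other 5 lie between the dotted lines.

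On the GRCm38 annotation of GENCODE M21, the 5 members H2-DMa, H2-DMb1, H2-Ab1, H2-Aa and H2-Eb1 lie within 197.1 kb of the MHC on chromosome 17 (34119541 to 34316674), a span with 11 listed genes. H2-Ab1 and H2-Aa, at 0 or nearly 0, sit there between H2-DMb1 and H2-Eb1. The remaining members are dispersed, with Rfxap (54803115 to 54807791) and Rfx5 (94954075 to 94961561) on chromosome 3, Rfxank on chromosome 8 (70130794 to 70139154) and Ciita on chromosome 16 (10480059 to 10528418).

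Cd74 lies on chromosome 18 (60803848 to 60812652, plus strand). Its neighbour Tcof1, a nucleolar factor gene 1.1 kb away, had 7.67 and 7.66 FPKM at 10 passages and 9.65 and 11.5 at 48 passages. Rps14, a ribosomal protein gene 25.3 kb to the other side, had 1146 and 2150 FPKM against 2136 and 6606, with overlapping groups. Ndst1, a heparan sulfate enzyme gene, had 14.5 and 9.40 FPKM against 7.87 and 1.41. Tcof1, Rps14 and Ndst1 were not called. The other genes next to Cd74, Synpo, Arsi and Camk2a, were at or near 0.

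The genes whose pattern was most like that of Cd74, by Euclidean distance of log2(FPKM + 1) over the 4 libraries, were Nxf7 (distance 0.75), Tmem176b (0.75), Ap1m2 (0.81), Dpep1 (0.90) and Serpinb6c (0.92). Nxf7, of the nuclear RNA export factor family, was listed at 0 in both libraries of 10p-HFSCs and had 76.0 and 73.4 FPKM in those of 48p-HFSCs. Ap1m2, an epithelial clathrin adaptor subunit, and Dpep1, a dipeptidase, were likewise at 0 in 10p-HFSCs and between 49.9 and 68.5 FPKM in 48p-HFSCs. Tmem176b, a membrane protein, had 0.113 and 0 FPKM against 91.4 and 128, and the serpin Serpinb6c 0.304 and 0.303 against 92.4 and 166. With 4 libraries in 2 groups, likeness mostly means a similar pair of group levels.

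The rest of the class II pathway was examined through 8 gene lists, of which 65 symbols were listed and 47 compared. Of these 47, 6 were called higher in 48p-HFSCs, 5 lower and 36 not, beside 10.8% and 9.15% of all genes. An unadjusted limma p under 0.05 was found for 18 of the 47, beside 4118 of all 11018 genes compared, so nothing is read from this count. The median log2 difference of the 47 was 0.14 beside -0.03 for all genes. On the TPM scale, with its median of -0.56, H2-K1, H2-D1, Nfyc and Tap1 stayed called, which is 2 higher and 2 lower. The calls in both directions also changed with the library that was left out. Such a fit keeps 1 sample in a group, so nothing is read from its counts.

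Most further class II chains were as low as H2-Aa. H2-Ea-ps, H2-Eb2 and H2-Ob were listed at 0 in all 4 libraries. H2-Oa, a chain of the DO modulator of DM, had 0.0577, 0.0806, 0.209 and 0.124 FPKM. H2-DMb2, described above, was the 1 gene of the list that reached the filter, and it was not called.

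Among genes that process the invariant chain and peptides, 8 were compared and 2 were called lower, beside 9.15% of all genes. Sppl2a, the intramembrane protease that clears the N-terminal fragment of CD74, had 31.5 and 22.6 FPKM at 10 passages and 12.0 and 5.63 at 48 passages (log2 difference -1.58, SE 0.40, limma adjusted p = 0.041). Ctsf, a cathepsin able to cut the invariant chain, had 2.59 and 3.70 FPKM against 1.10 and 0.650 (-1.14, SE 0.28, limma adjusted p = 0.039). On the TPM scale their log2 differences were -2.12 and -1.56, beside the median of -0.56, and did not pass the threshold (limma adjusted p = 0.060 and 0.086). Ctss, the main invariant chain protease of antigen-presenting cells, did not exceed 0.204 FPKM in any library, whereas Ctsl, which has that role in thymic epithelium, had 734, 559, 653 and 878 FPKM.

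Of 11 promoter factors and CIITA cofactors, all compared, 2 were called lower, beside 9.15% of all genes. Nfyc, the NF-Y subunit C, had 29.4 and 38.2 FPKM at 10 passages and 12.7 and 12.0 at 48 passages (-1.37, SE 0.26, limma adjusted p = 0.019). Crebbp, a histone acetyltransferase, had 7.36 and 4.38 FPKM against 1.95 and 0.702 (-1.58, SE 0.39, limma adjusted p = 0.039), and on the TPM scale -2.02, which did not pass the threshold (limma adjusted p = 0.078). The other NF-Y subunits, Nfya and Nfyb, overlapped between groups. Of the RFX family outside the class II complex, 4 of 7 genes were compared and none was called by limma, with Rfx7 at an unadjusted p of 0.013 (limma adjusted p = 0.056).

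Genes of Ciita induction by interferon gamma gave 2 calls among 10 compared, beside 19.9% of all genes called in either direction. Ifngr2, a receptor subunit, rose from 5.97 and 4.57 to 16.6 and 15.1 FPKM (1.44, SE 0.27, limma adjusted p = 0.019). The transcription factor Irf1, which acts on Ciita, rose from 32.9 and 29.0 to 80.7 and 80.2 FPKM (1.35, SE 0.24, limma adjusted p = 0.016). Both calls were lost on the TPM scale, where the log2 differences were 0.94 and 0.78 (limma adjusted p = 0.41 and 0.27) beside the median of -0.56. The ligand gene Ifng was listed at 0 in every library. Other members of the list were not called, with Ifngr1 at 9.80 and 11.0 FPKM against 6.69 and 7.95, Jak1 at 29.3 and 19.9 against 27.5 and 26.1, and Jak2 at 20.1 and 20.3 against 30.4 and 29.3. Irf2 had 12.3 and 11.6 FPKM against 12.8 and 10.3, Usf1 45.6 and 54.9 against 47.7 and 84.3, Usf2 41.1 and 40.9 against 29.9 and 43.2, and Socs1 9.53 and 10.1 against 8.59 and 4.53. Receptor, kinase and transcription factor genes upstream of Ciita were thus measured well above Ciita itself.

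**Figure D4:**
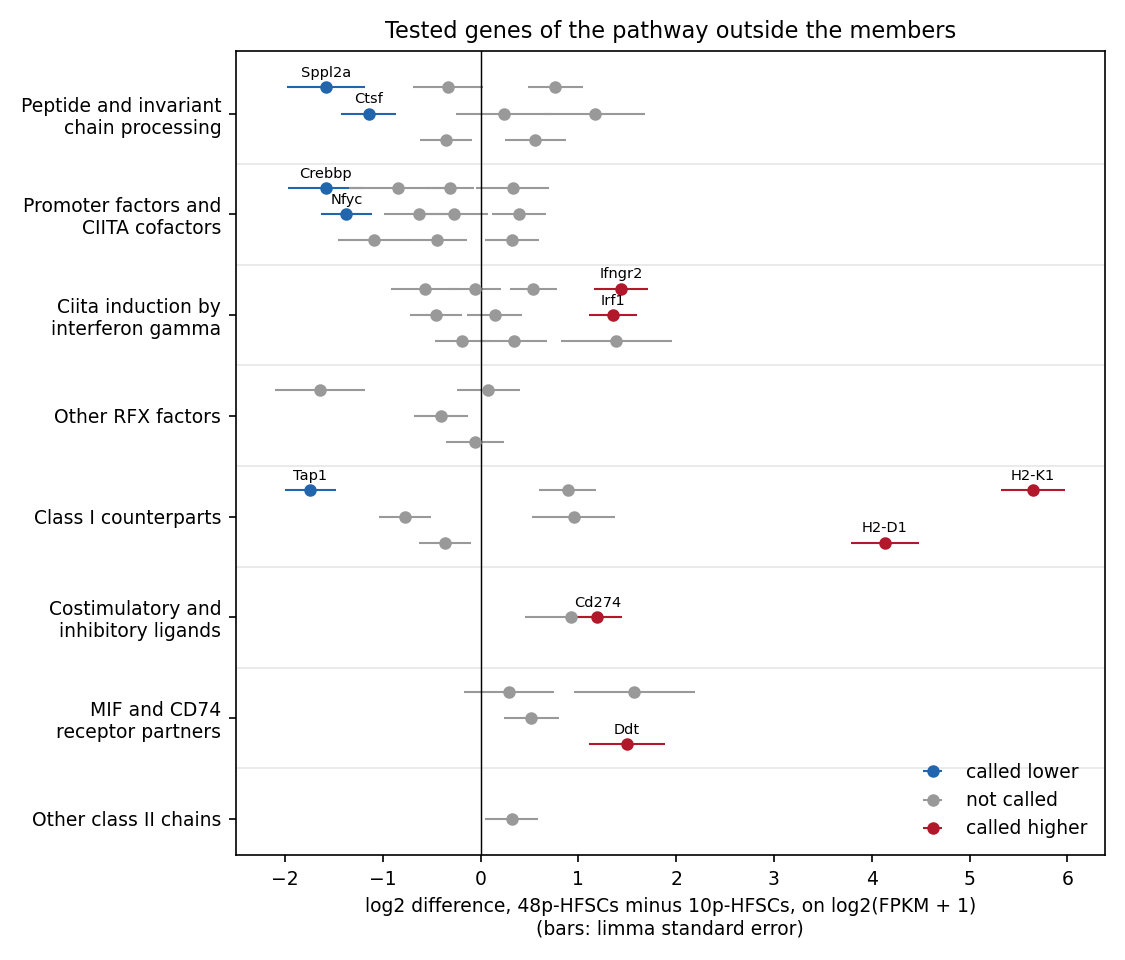
Log2 difference of 48p-HFSCs minus 10p-HFSCs on the log2(FPKM + 1) scale, with limma standard errors as bars, for the compared genes of the 8 pathway lists, colored by call (red, higher; blue, lower; grey, not called). H2-K1 and H2-D1 stand at 5.65 and 4.13, and the other called genes lie between -1.74 and 1.498.

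In the class I counterpart, 7 genes were compared, with 2 called higher and 1 lower, beside 10.8% and 9.15% of all genes. H2-K1 had 0.0677 and 0.0473 FPKM at 10 passages and 40.9 and 66.3 at 48 passages (5.65, SE 0.33, limma adjusted p = 0.00092), and H2-D1 had 0.725 and 1.16 against 25.5 and 42.3 (4.13, SE 0.34, limma adjusted p = 0.0014). H2-K1 entered the comparison only through its level in 48p-HFSCs, and H2-D1 mainly so. The values of both, too, count reads that could be placed on the C57BL/6 alleles of the reference, which differ from those of C3H mice. The part of this in the H2-K1 and H2-D1 differences was not tested. Tap1, which transports peptides for class I and lies inside the class II span, fell from 7.09 and 6.99 to 1.57 and 1.26 FPKM (-1.74, SE 0.26, limma adjusted p = 0.0084). Nlrc5, the class I relative of Ciita, did not exceed 0.0155 FPKM.

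Among ligands that act beside class II on T cells, 2 of 7 were compared and Cd274 (PD-L1) was called, with 1.41 and 1.37 FPKM against 4.09 and 4.88 (1.19, SE 0.25, limma adjusted p = 0.026, and 0.39 on the TPM scale). Cd86 and Pdcd1lg2 were listed at 0 throughout. For the receptor role of CD74, 4 of 5 genes were compared. Ddt, a ligand related to MIF, was called with 41.7 and 58.9 FPKM against 103 and 194 (1.498, SE 0.39, limma adjusted p = 0.047, and 0.10 on the TPM scale). Mif itself had 461 and 602 FPKM against 1051 and 2340 (limma adjusted p = 0.13, and 0.017 on the TPM scale). Its log2 difference on the TPM scale was 0.987, just under the limit of 1, so Mif was not called on either scale. The coreceptor Cd44 had 117 and 103 against 152 and 163 (limma adjusted p = 0.23) and was not called. Cxcr2 had 0.275 and 1.08 FPKM against 0.311 and 2.03 (limma adjusted p = 0.68), and Cxcr4 was listed at 0 in each library.

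Cd74 is abundant in leukocytes, so 23 leukocyte markers were set beside it. Of these, 18 stayed under 1 FPKM in all libraries, among them 6 listed at 0 in all. Their summed FPKM was 10.6 in each 10p-HFSC library and 64.2 and 86.9 in the 48p-HFSC libraries, a difference that came mostly from Cd68. Among those under 1 FPKM throughout, Cd14 (0.670 and 0.608 against 0.121 and 0) and Fcer1g (0.214 and 0.299 against 0 and 0) were lower in 48p-HFSCs. Ptprc and Cd79a, given below, were higher there. These low values were not compared by limma. Of the 4 markers compared, 3 were called higher in 48p-HFSCs, beside 10.8% of all genes, but Cd79b and Lyz2 reached the filter only through 48p-HFSCs, so that nothing is read from this count. Cd68, a lysosomal protein of macrophages, had 7.30 and 6.81 FPKM against 53.2 and 78.7 (3.03, SE 0.29, limma adjusted p = 0.0020). Cd79b, of the B cell receptor, had 0 and 0.0686 FPKM against 2.31 and 3.36 (1.88, SE 0.25, limma adjusted p = 0.0059), and the lysozyme gene Lyz2 had 0.286 and 0.479 against 3.04 and 1.96 (1.33, SE 0.27, limma adjusted p = 0.023, and 0.13 on the TPM scale).

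Defining markers, a smaller set taken from the same list that leaves out Cd68, Cd79b and Lyz2, varied in level. Ptprc (CD45), carried by nearly all leukocytes, did not exceed 0.0711 FPKM, and Itgax of dendritic cells, Cd207 of Langerhans cells and Cd3e of T cells were listed at 0 in each library. Cd79a, of the B cell receptor, had 0.0869 and 0 FPKM at 10 passages and 0.419 and 0.651 at 48 passages. Csf1r, of macrophages, had 1.28 and 1.13 FPKM against 3.39 and 1.62 and was not called (limma adjusted p = 0.21). The leukocyte calls changed when replicate 1 or replicate 2 of 10p-HFSCs was left out. Such a fit keeps 1 sample in that group, so nothing is read from its counts. The part of such cells in the Cd74 level was not tested.

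Other features of the libraries moved with passage too. The summed FPKM of 8 fibroblast markers was 68.9 and 60.2 at 10 passages and 0.185 and 0.242 at 48 passages, with the difference nearly all from Col1a2. That of 6 melanocyte markers was 0.699 and 0.829 against 2.36 and 11.0, a difference mostly from Tyr (0.0945 and 0.286 against 1.33 and 9.48), with Dct and Sox10 at 0 throughout. That of 5 endothelial markers was 2.86 and 2.58 against 1.37 and 0.292, a difference mostly from Pecam1 (2.38 and 2.24 against 1.01 and 0.172). The keratin genes Krt5 (1473 to 8156 FPKM) and Krt14 (1217 to 3896 FPKM) of basal keratinocytes were high in all libraries, and of 6 keratinocyte and hair follicle stem cell markers compared Itga6 was called higher and Sox9 lower. On the TPM scale Itga6 was not called (limma adjusted p = 0.14) and Krt5 was called higher (limma adjusted p = 0.040). In these libraries Cd34 did not exceed 0.234 FPKM and Lhx2 did not exceed 0.0241. The sort for CD34 was done before culture, and the paper reported CD34 protein on most cells at both passages. By qRT-PCR it reported that Cd34 was maintained and that Lhx2 and Sox9 increased in 48p-HFSCs, unlike the FPKM of Lhx2 and Sox9 here. Why these measures differ was not tested. Relative depth, as steps per unit of FPKM, was 71.6% to 100% in 10p-HFSCs and 46.7% to 82.9% in 48p-HFSCs, which is not a measure of reads sequenced. The sum of all FPKM values was highest in replicate 2 of 48p-HFSCs, at 1414950 against 581516 to 719012 in the others. The part of these differences in the member levels was not tested.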

How the data were processed

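Polyadenylated RNA of 10p- and 48p-HFSCs was sequenced from stranded libraries. Per the labels the submitters' processing notes name TopHat2 2.1.1, Bowtie2 2.2.8, SAMtools 0.1.18, Cuffdiff 2.2.1 and the build mm10, and the authors deposited 1 FPKM value per gene symbol and library. The annotation, strand setting and handling of reads with several placements are not given in the sources used here. FPKM values are not counts, so no count model was used.

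FPKM was transformed to log2(FPKM + 1). Genes with at least 1 FPKM in at least 2 libraries (11018) entered a limma fit (version 3.58.1, R 4.3.3, lmFit and eBayes with trend) with Benjamini-Hochberg adjustment. Calls required an adjusted p under 0.05 and a log2 difference of at least 1. An exact permutation test of 2 against 2 libraries cannot give a two-sided p below 0.333. The fit was tested on simulated data. Other steps used Python 3.11.15, pandas 2.3.3 and numpy 2.4.6.

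FPKM carries no read totals. Median-of-ratios size factors of the FPKM values lay between 1.0003 and 1.0111, so the libraries were already alike in scale. Relative depth here means steps per unit of FPKM and not reads sequenced. It was read from the ratio that recurred most often between a library and the first 10p-HFSC library, over genes under 0.3 FPKM in both. The ratio was 1.396 in the other 10p-HFSC library (368 of 1801 genes), 1.206 in the first 48p-HFSC library (231 of 1311) and 2.141 in the second (177 of 927). Values were called whole steps within 0.03 of a whole number. Low values are least precise in the second 48p-HFSC library, where a step is largest, and no counting interval is given.

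The members, gene lists and tests were chosen with earlier results of these data known. Named genes were all members, the 5 genes nearest to Cd74, the called genes of each list, and all genes of the lists of other class II chains, MIF partners, Ciita induction and leukocyte defining markers, except for items that are not reported here. Genes next to Cd74 and other list genes (Ctss, Ctsl, Nfya, Nfyb, Rfx7, Nlrc5, Cd86, Pdcd1lg2, Cd14, Fcer1g, Tyr, Dct, Sox10, Pecam1, Krt5, Krt14, Cd34 and Lhx2) were named after their values were seen. Alternatives were TPM, median-of-ratios or quantile scaling, a pseudocount of 0.1, no filter, the replicate number as a block and leaving out each library.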

Additional observations from a re-analysis of the deposited data

How the results depend on the processing

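Of 56 recomputed log2 differences of members, 49 moved by less than the replicate spread and 7 moved further. Leaving out 1 of 2 replicates always shifts a difference by less than this spread, so those rows could not count as moved. The 49 are therefore no measure of stability. All 7 that moved came from the pseudocount of 0.1 or the TPM scale. H2-DMa was at -1.92 with a pseudocount of 0.1 and at -1.74 on the TPM scale, both still called. The count of called members was 2 and became 1 without the filter and 1 after quantile normalization, and ranged from 1 to 2 when single libraries were left out. Over all genes, 1189 were called higher and 1008 lower. On the TPM scale 623 were called higher, without the filter 637 were called lower, and leaving out single libraries gave 35 to 1936 higher and 140 to 1875 lower. Pathway genes called higher numbered 6, and 2 on the TPM scale, with 1 to 9 when single libraries were left out. Those called lower numbered 5, with 2 without the filter, 2 on the TPM scale and 0 to 9 when single libraries were left out. Leukocyte markers called higher numbered 3, with 0 to 3 when single libraries were left out. Leaving out a library leaves 1 sample in its group, which is then assumed to vary like the other group, and fewer samples enter these fits.

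Same-numbered libraries deviated together (correlation 0.41), but with 2 pairs and no label that a number marks a shared batch they share only a number. With the replicate block, 1613 genes were called higher and 1497 lower, 2 members, 7 pathway genes higher, 7 lower (Kat2b and Rfx7 added) and 3 leukocyte markers.

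Low FPKM values in the library with the largest step limit what can be said of them. So do the levels of Ciita and H2-Oa, at most 3 steps each, and the lone value of H2-Aa above 0. Read totals are not known.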
